A study of Homo sapiens with 6 samples.

Results

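The tumour necrosis factor (TNF) ligand and receptor superfamilies were followed in U87, an established human glioblastoma cell line. Members were taken by symbol: every gene whose symbol begins TNFRSF or TNFSF, together with TNF, LTA, LTB, LTBR, CD40, CD70 and NGFR. This gave 43 of 27738 genes of the authors' deposited table: 24 receptors, 15 ligands and 4 genes that carry a family symbol but are non-coding or readthrough transcripts. RNA was sequenced from 3 libraries of U87 cells labelled EGFR+vIII with a TLR2 knockout (TLR2 KO) and from 3 libraries labelled EGFR+vIII. The epidermal growth factor receptor and its active deletion mutant vIII are thus shared by both groups. TLR2 is an innate immune receptor that senses microbial lipoproteins, and the question was how its loss moved gene expression in these cells. The labels do not say whether the knockout cells were a single clone, nor whether separate cultures were sequenced, and the p-values cover only the spread among these libraries, possibly a technical one.

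Ligands of the TNF superfamily are mostly trimeric membrane proteins that can be shed, and each binds one or a few receptors with cysteine-rich domains. Receptors fall into those with a cytoplasmic death domain, which can recruit FADD and caspase-8, those that bind TRAF adaptors and feed into NF-kB and MAP kinases, and decoys that bind ligand without transmitting a full signal. In glioblastoma the family is known for TNFRSF12A, the receptor of TWEAK, and for the TRAIL receptors, which have been studied as a route to tumour cell death.

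Everything below comes from the authors' deposited table of their own DESeq2 comparison, which lists RefSeq accessions and holds no library's own values. The base mean is the authors' mean of size-factor-normalized reads over the 6 libraries. An implied mean is the level of a group that this base mean and the fold change together give, so it restates them and has no error of its own. A call is a deposited adjusted p under 0.05. Fold changes are TLR2 KO over EGFR+vIII, as the table's name puts the groups. The targeted gene does not check that order, because all 8 TLR2 accessions are listed at 0 in the authors' deposited table, and with the opposite order every direction given here would turn round. By the authors' deposited table, the leucocyte markers AIF1, CD14, CSF1R, ITGAM, MS4A1 and PTPRC and all 4 neuronal markers were listed at 0, and the leucocyte markers CD3E (base mean 2.47) and NKG7 (0.156) had no adjusted p. The astrocyte genes GFAP, S100B and AQP4 were also at 0 there, while the intermediate filament gene VIM had a base mean of 126476. Of the 5 tested markers of the line's own list, NES was higher (log2 fold change 1.01, DESeq2 adjusted p = 1.15e-14) and VIM lower (-0.29, DESeq2 adjusted p = 0.00235) in the authors' deposited table. Of the markers of other tissues, the endothelial gene KDR had a base mean of 556.0, the epithelial gene EPCAM 22.4 and the fibroblast collagen COL1A2 12931 in the authors' deposited table, where the 3 tested endothelial genes and 1 tested epithelial gene were not called and all 3 tested fibroblast genes were called lower. The part of these markers in the results was not tested. A listing at 0 does not show a silent gene, since GAPDH, a glycolytic enzyme of every cell, has a highest base mean of only 6.19 over its 6 accessions in the authors' deposited table.

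Promoter windows of the called members were looked up in RefSeq (GRCh38.p14). Windows were found for 26 of the 43 members, among them 3 of the 6 called members: TNFRSF9 and TNFRSF1B, which were higher in TLR2 KO cells, and TNFRSF21, which was lower. They are printed from 250 bases before to 50 bases after the start of the gene, in the direction of the gene, so that the windows of the members that moved in opposite directions can be compared. Capitals mark a match to a kappa B-like motif.
TNFRSF9 (chr1:7940790-7941089, minus strand): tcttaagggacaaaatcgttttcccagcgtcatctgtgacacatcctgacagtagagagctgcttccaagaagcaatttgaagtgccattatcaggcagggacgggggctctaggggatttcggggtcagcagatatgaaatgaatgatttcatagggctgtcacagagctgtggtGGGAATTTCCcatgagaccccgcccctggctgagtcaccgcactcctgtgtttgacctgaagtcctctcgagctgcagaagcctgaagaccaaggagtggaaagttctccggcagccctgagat
TNFRSF1B (chr1:12166741-12167040, plus strand): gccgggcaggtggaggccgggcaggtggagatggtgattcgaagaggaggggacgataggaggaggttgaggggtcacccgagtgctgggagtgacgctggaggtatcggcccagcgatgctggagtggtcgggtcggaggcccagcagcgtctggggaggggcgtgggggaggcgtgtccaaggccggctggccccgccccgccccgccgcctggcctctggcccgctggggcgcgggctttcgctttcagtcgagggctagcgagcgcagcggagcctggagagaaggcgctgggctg
TNFRSF21 (chr6:47309856-47310155, minus strand): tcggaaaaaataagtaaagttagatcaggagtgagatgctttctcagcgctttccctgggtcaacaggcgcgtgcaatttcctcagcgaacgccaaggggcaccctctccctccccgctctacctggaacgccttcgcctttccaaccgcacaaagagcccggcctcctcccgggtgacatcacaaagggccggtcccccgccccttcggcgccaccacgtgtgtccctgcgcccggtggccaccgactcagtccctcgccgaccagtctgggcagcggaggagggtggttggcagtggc
The longer motif searched, on both strands, was GGG, any 2 bases and TTTCC, and the shorter was GGAATTTCC, which can lie inside the longer. The TNFRSF9 window held GGGAATTTCC, a match to both, from 74 bases before the start of the gene. Among member windows the longer motif was matched in TNFRSF9 and in LTB, a gene listed at 0, and the shorter in TNFRSF9 alone. Of all 35116 promoter windows, 1.91% held the longer and 0.461% the shorter. The TNFRSF1B window held neither, nor did that of TNFRSF21. The 3 windows also differ in base composition: the share of G and C is 52.3% in TNFRSF9, 72% in TNFRSF1B and 63.3% in TNFRSF21, beside a median of 58.7% over all windows. A match is a description of letters, not evidence of binding.

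An adjusted p was given to 17 of the 43 members in the authors' deposited table, and 6 of the 17 were called. TNFRSF1B, TNFRSF9 and TNFRSF11B were higher in TLR2 KO cells, and TNFRSF21, TNFRSF10D and TNFRSF10C were lower. All 6 called members were receptors, out of 12 receptors tested, while the 3 tested ligands and 2 tested non-coding genes were not called. The 6 also all had 1 accession, out of 14 such members tested, and 0 of the 3 tested members with more than 1 accession were called. The called share of members was 35.3%, against 25.1% of all 9372 tested genes in the authors' deposited table. By direction, 3 members were called in each, while 12.4% of all tested genes were called higher and 12.7% lower. Among genes with a base mean of at least 100, 4 of 7 members (57.1%) and 43.1% of all 4227 genes were called in the authors' deposited table. The median log2 fold change of the 17 tested members was 0.08, against 0.02 over all tested genes in the authors' deposited table.

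**Figure D1:**
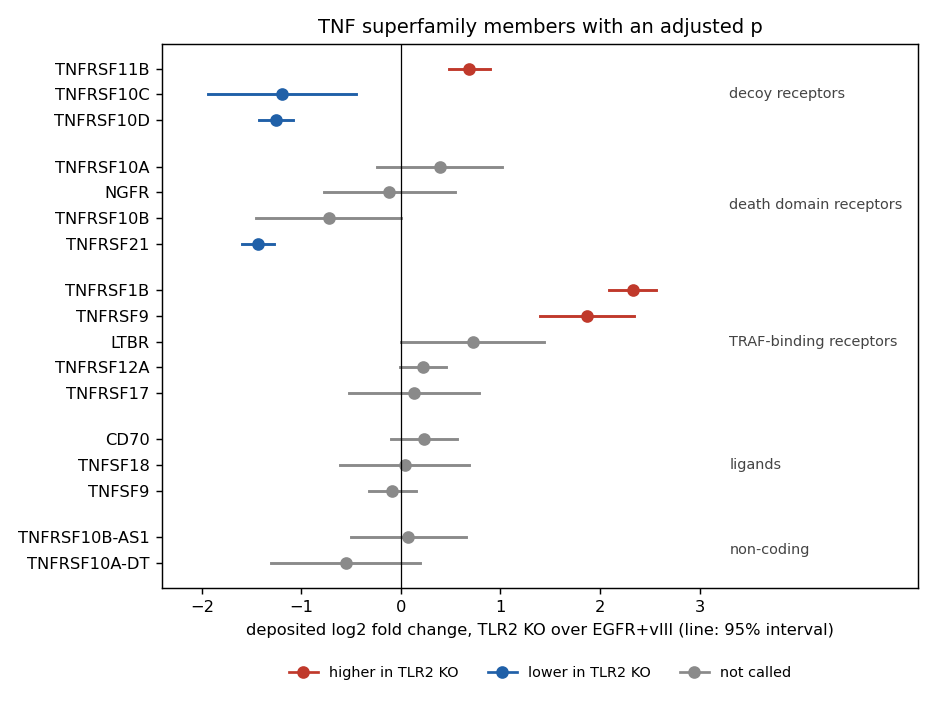
Deposited log2 fold change (TLR2 KO over EGFR+vIII, x axis) of the 17 members with an adjusted p, grouped by role. Points are the authors' estimates. Lines are 95% normal intervals computed from the authors' SE, likely too narrow for thinly read genes. TNFRSF1B (2.33) and TNFRSF9 (1.87) stand to the right and TNFRSF21 (-1.44) and TNFRSF10D (-1.26) to the left with short intervals, while the 3 ligands lie near 0.

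The largest change of any member was the rise of TNFRSF1B (chromosome 1, 12166991 to 12209220, GRCh38), the TNF receptor that lacks a death domain and signals through TRAF2. Its base mean and fold change in the authors' deposited table imply 1128 normalized reads per TLR2 KO library and 224.4 per EGFR+vIII library. TNFRSF1B was thus 5.03-fold higher, a log2 fold change of 2.33 (SE 0.12) with a DESeq2 adjusted p of 2.78e-79 in the authors' deposited table. Its 59 tested neighbours within 5 Mb had a median log2 fold change of 0.02 in that table.

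TNFRSF9 (chromosome 1, 7915871 to 7940839), known as CD137, is a costimulatory receptor induced on activated lymphocytes. Its implied means were 155.4 normalized reads per library in TLR2 KO cells and 42.5 in EGFR+vIII cells, from the authors' deposited table. The log2 fold change of TNFRSF9 was 1.87 (SE 0.24, DESeq2 adjusted p = 2.32e-13) in the authors' deposited table, a 3.66-fold rise. Its ligand TNFSF9 (chromosome 19, 6531026 to 6535924) was well covered, with implied means of 817.4 in TLR2 KO and 867.9 normalized reads per library in EGFR+vIII cells. TNFSF9 had a log2 fold change of -0.09 in the authors' deposited table, with a 95% interval of -0.33 to 0.15. This receptor and ligand were the only pair, of 29 textbook pairs within the family, in which both genes had an adjusted p.

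The other tested receptors that bind TRAF adaptors were not called. TNFRSF12A (chromosome 16, 3020368 to 3022383), the TWEAK receptor, had implied means of 2776 normalized reads per library in TLR2 KO cells and 2380 in EGFR+vIII cells. Its log2 fold change in the authors' deposited table was 0.22, with a 95% interval of -0.01 to 0.46 (DESeq2 adjusted p = 0.189). LTBR (chromosome 12, 6375160 to 6391566), the lymphotoxin beta receptor, which acts through the non-canonical NF-kB kinase MAP3K14, had implied means of 26.5 in TLR2 KO and 16.1 normalized reads per library in EGFR+vIII cells. The log2 fold change of LTBR in the authors' deposited table was 0.72 (SE 0.37), with an unadjusted p of 0.0489 and a DESeq2 adjusted p of 0.154. TNFRSF17, the B cell maturation antigen, had implied means of 3.62 in TLR2 KO and 3.31 normalized reads per library in EGFR+vIII cells, few reads for telling a change. Its log2 fold change was 0.13 in the authors' deposited table. The interval computed from its SE, -0.52 to 0.78, is likely too narrow at so few reads.

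**Figure D2:**
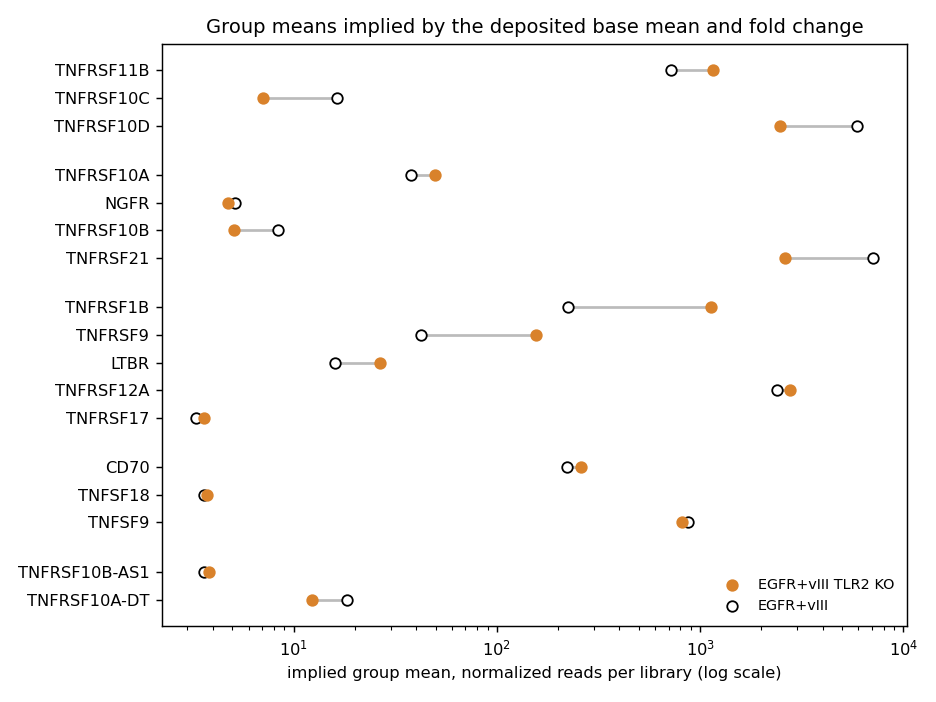
Group means (normalized reads per library, log axis) implied by the authors' base mean and fold change for the 17 tested members; filled points are TLR2 KO cells, open points EGFR+vIII cells, and grey lines join the groups of one gene. The gap is widest for TNFRSF1B (1128 in TLR2 KO and 224.4 in EGFR+vIII cells), while TNFRSF21 (2628 in TLR2 KO and 7117 in EGFR+vIII cells) has high means in both groups.

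Among receptors with a death domain, 1 of 4 tested was called (25%), close to the 25.1% of all tested genes. TNFRSF21 (chromosome 6, 47231532 to 47309905), death receptor DR6, was the most deeply read member, with implied means of 2628 normalized reads per library in TLR2 KO cells and 7117 in EGFR+vIII cells. TNFRSF21 fell by 1.44 on the log2 scale (SE 0.08, DESeq2 adjusted p = 5.61e-69) in the authors' deposited table, and was 2.71-fold higher in EGFR+vIII cells. Its 33 tested neighbours had a median log2 fold change of 0.04 in the authors' deposited table. APP, a protein reported to bind TNFRSF21, has 10 accessions in the authors' deposited table, none with an adjusted p.

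NGFR, the low-affinity neurotrophin receptor, had implied means of 4.74 in TLR2 KO and 5.14 normalized reads per library in EGFR+vIII cells. Its log2 fold change was -0.12 in the authors' deposited table. The interval computed from its SE, -0.77 to 0.54, is likely too narrow at so few reads. TNFRSF1A, the death domain receptor of TNF, could not be followed, since 3 of its 4 accessions are listed at 0 in the authors' deposited table and the one left has a base mean of 0.331, the worth of 1.98 reads over all 6 libraries. Whether TNFRSF1A changed beside TNFRSF1B was therefore not detectable.

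The TRAIL receptors lie together on chromosome 8, between 23020133 and 23230926 (GRCh38), a span of 210.8 kb with 4 receptor genes and 2 non-coding genes of the family. Another tested gene, LOC254896, lies between TNFRSF10B-AS1 and TNFRSF10C and was not called (log2 fold change -0.26 in the authors' deposited table). TNFRSF10A and TNFRSF10B carry a death domain and can transmit the TRAIL signal, whereas TNFRSF10C, anchored to the membrane by a lipid, and TNFRSF10D, with a truncated death domain, act as decoys. The decoys were called lower and the death domain receptors were not called. A difference between decoys and death domain receptors was not tested, and the reads behind them were unequal, with base means of 4197 for TNFRSF10D but 43.6 for TNFRSF10A, 11.7 for TNFRSF10C and 6.73 for TNFRSF10B in the authors' deposited table.

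TNFRSF10D had implied means of 2473 normalized reads per library in TLR2 KO cells and 5922 in EGFR+vIII cells. The log2 fold change of TNFRSF10D was -1.26 (SE 0.09, DESeq2 adjusted p = 1.43e-45) in the authors' deposited table. TNFRSF10C had implied means of 7.10 in TLR2 KO and 16.3 normalized reads per library in EGFR+vIII cells, with a log2 fold change of -1.20 (SE 0.38, DESeq2 adjusted p = 0.00929) in the authors' deposited table. These receptors are close paralogs, and how the authors' counting treated reads that fit several of them is not stated.

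TNFRSF10A, with implied means of 49.5 in TLR2 KO and 37.8 normalized reads per library in EGFR+vIII cells, had a log2 fold change of 0.39 (interval -0.24 to 1.02, DESeq2 adjusted p = 0.461) in the authors' deposited table. TNFRSF10B, of which 2 of 3 accessions were at 0, had 5.07 implied normalized reads per library in TLR2 KO cells and 8.4 in EGFR+vIII cells. Its log2 fold change was -0.73 (SE 0.37, DESeq2 adjusted p = 0.157) in the authors' deposited table. The divergent transcript TNFRSF10A-DT (-0.56, SE 0.38) and the antisense gene TNFRSF10B-AS1 (0.08, SE 0.30) were not called, on the log2 scale of the authors' table as deposited. TNFRSF10B-AS1 overlaps TNFRSF10B by position, and without knowing strandedness their reads cannot be told apart.

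Some other genes around the TRAIL receptors were also called lower, though most were not called. The 33 other tested genes within 5 Mb of TNFRSF10D had a median log2 fold change of -0.34 in the authors' deposited table, with 8 called lower and 1 higher, against 12.7% lower and 12.4% higher of all tested genes. Their log2 fold changes ran from -2.56 to 0.70 in the authors' deposited table. LOXL2, the nearest of those called, named after its value was seen, lies 200.7 kb away and had a log2 fold change of -1.06 in the authors' deposited table. Relative to that neighbour median, TNFRSF10D had a log2 fold change of -0.92 (adjusted p = 2.56e-24, normal test on the authors' deposited SE) and stayed called. TNFRSF10C had -0.85 (adjusted p = 0.0879, by the same test on the authors' deposited SE) and lost its call, as it also did against a change of 1.5-fold and with Wald scores (the fold change over its SE) rescaled to their central spread. The test relative to neighbours takes their median as a fixed value and leaves out their own spread. The part of the region in these falls was therefore not tested.

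**Figure D3:**
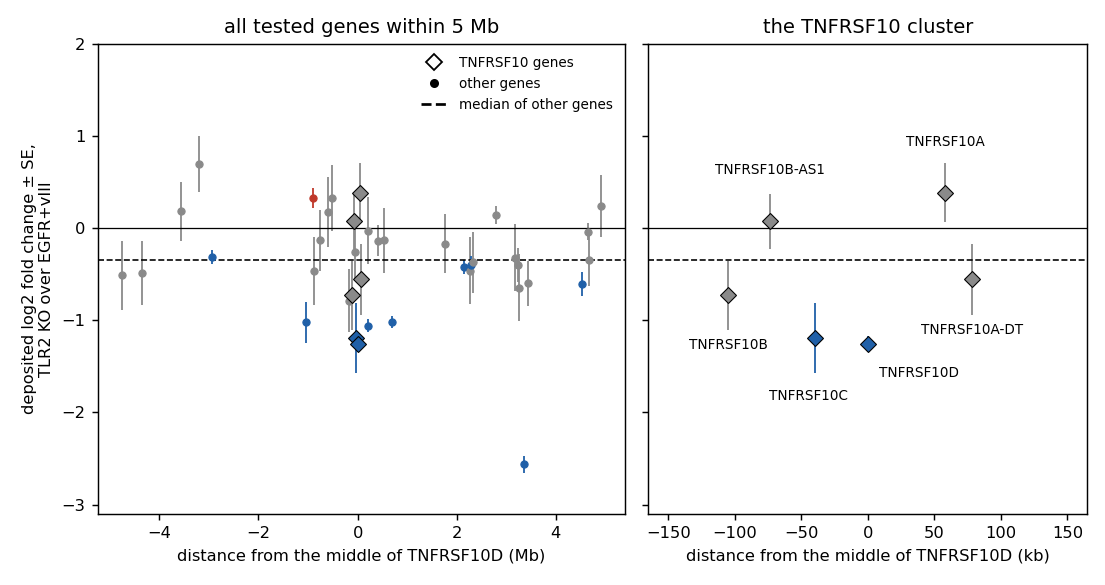
Deposited log2 fold change ± SE (TLR2 KO over EGFR+vIII, y axis) by distance from the middle of TNFRSF10D, for all tested genes within 5 Mb (left) and for the TNFRSF10 genes (right, kb); red and blue are called higher and lower, grey not called, diamonds TNFRSF10 genes. The dashed line is the median of the other genes (-0.34), and TNFRSF10C (-1.20) and TNFRSF10D (-1.26) lie below it while TNFRSF10A (0.39) lies above.

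TNFRSF11B (chromosome 8, 118923557 to 118951885), osteoprotegerin, is a secreted decoy for RANKL and TRAIL and lies far from the TRAIL receptor cluster. Its implied means were 1157 normalized reads per library in TLR2 KO cells and 719.8 in EGFR+vIII cells, 1.61-fold higher. The log2 fold change of TNFRSF11B was 0.68 (SE 0.11, DESeq2 adjusted p = 1.73e-09) in the authors' deposited table, but it did not pass when tested against a change of 1.5-fold. The 24 tested neighbours of TNFRSF11B had a median of -0.01 in the authors' deposited table. All 3 tested decoys were thus called, 2 lower and 1 higher, while 25.1% of all tested genes were called, and 3 genes are few for such a share. The soluble decoy TNFRSF6B had a base mean of 0.317 in the authors' deposited table and no adjusted p.

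**Figure D4:**
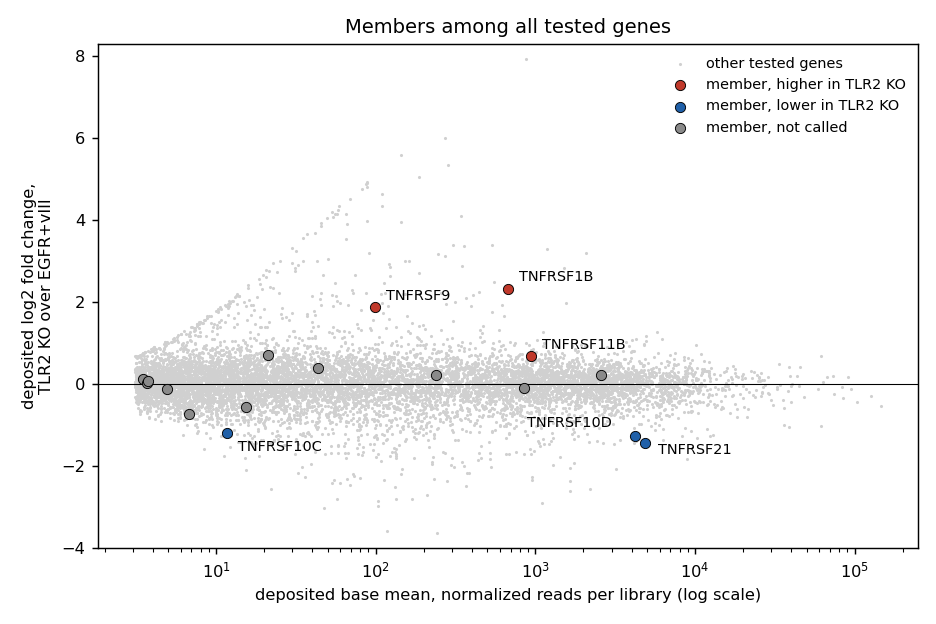
Deposited log2 fold change (TLR2 KO over EGFR+vIII, y axis) against deposited base mean (log axis) for all 9372 tested genes (grey) with the 17 tested members on top (red higher, blue lower, dark grey not called). Of the 6 called members 5 have base means of 98.9 or more and TNFRSF10C has 11.7. The grey points include called as well as uncalled genes.

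On the ligand side, 3 of 15 had an adjusted p, and on its leading accession, the one with the highest base mean, none was called by the authors' DESeq2 test or had an unadjusted p under 0.05 in the authors' deposited table. Besides TNFSF9, these were CD70 and TNFSF18. CD70 (chromosome 19, 6581648 to 6591150), the ligand of CD27, had implied means of 258.4 in TLR2 KO and 220.1 normalized reads per library in EGFR+vIII cells on its leading accession, NM_001330332. That accession had a log2 fold change of 0.23 (SE 0.17, DESeq2 adjusted p = 0.379) in the authors' deposited table. The other CD70 accession, NM_001252, had a base mean of 48.1 and a log2 fold change of 0.95 (SE 0.30, DESeq2 adjusted p = 0.00927), by the authors' deposited table, and the call for CD70 depends on the accession; the difference between them was not tested. TNFSF18, the ligand of the costimulatory receptor TNFRSF18, had a base mean of 3.69 and a log2 fold change of 0.04 in the authors' deposited table. The interval computed from its SE, -0.61 to 0.69, is likely too narrow at so few reads.

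TNF and lymphotoxin alpha and beta (LTA and LTB), the founding ligands, are at 0 in all their accessions in the authors' deposited table. So were TNFSF11 (RANKL), TNFSF13 (APRIL) and TNFSF15. TNFSF10 (TRAIL), TNFSF12 (TWEAK), TNFSF13B (BAFF), TNFSF14 (LIGHT), TNFSF4 (OX40 ligand) and TNFSF8 (CD30 ligand) had base means from 0.174 to 1.55 and, in the authors' deposited table, lack an adjusted p. A ligand's change was thus not measured for any receptor that was called, except TNFSF9 for TNFRSF9.

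**Figure D5:**
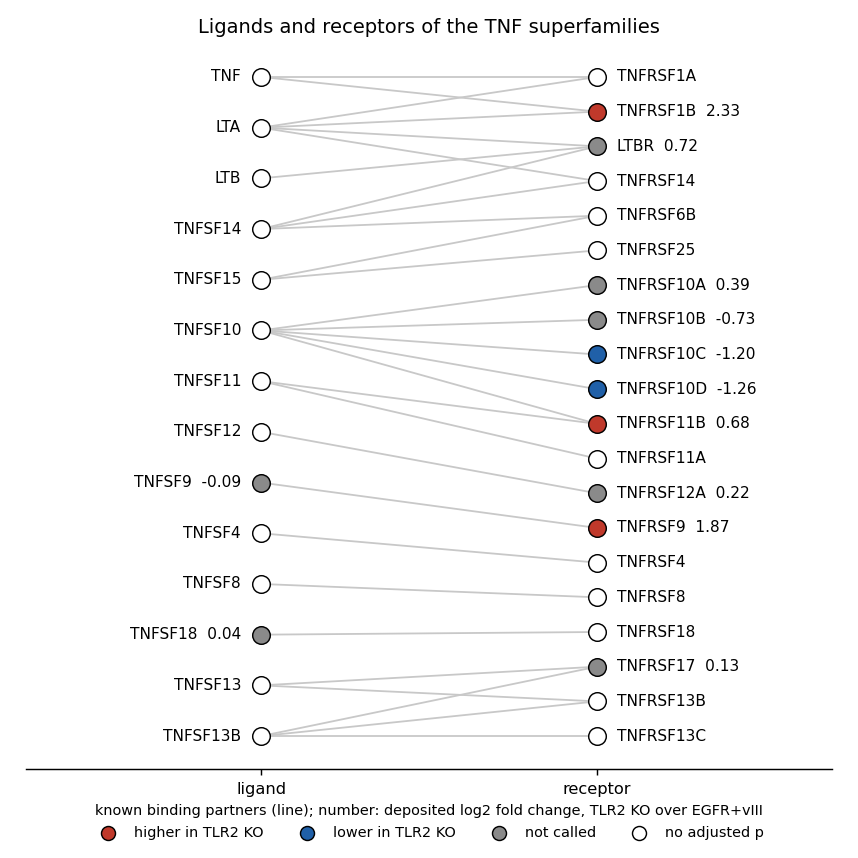
Ligands (left) and receptors (right) of the family joined by lines where binding is known, with the deposited log2 fold change (TLR2 KO over EGFR+vIII) printed where the gene had an adjusted p; red is higher, blue lower, grey not called, white without an adjusted p. White points fill most of the ligand side, and TNFSF9 (-0.09) with TNFRSF9 (1.87) is the only line with values at both ends.

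The remaining receptors gave no test. TNFRSF4, TNFRSF8, TNFRSF11A, TNFRSF13B, TNFRSF13C, TNFRSF14 and TNFRSF18, most of them known from lymphoid cells, were listed at 0 in the authors' deposited table. CD40 (base mean 0.806), TNFRSF19 (0.163) and TNFRSF25 (0.475) lacked an adjusted p in the authors' deposited table. Members with several accessions were rarely measured: 3 of 22 such members had an adjusted p, against 14 of 21 members with 1 accession. A missing value in the authors' deposited table therefore cannot be read as missing expression. The superfamily genes that carry other symbols did not fill the gap, as none of FAS, FASLG, CD27, CD40LG, EDA, EDAR, EDA2R and RELT had an adjusted p, and FAS was listed at 0 in all 11 accessions of the authors' deposited table.

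Levels can be compared between genes only per length, which was done for tested members with 1 accession of known transcript length. Over both groups, TNFRSF12A had the highest deposited base mean per kilobase of transcript (2495), ahead of TNFRSF21 (1355), TNFRSF10D (1186), TNFSF9 (506.1), TNFRSF11B (390.7) and TNFRSF1B (183.6), from the authors' deposited table and the GENCODE transcript lengths. The distance between the highest and the next differed by group: the implied mean per kilobase of TNFRSF12A was 2687 in TLR2 KO cells and 2303 in EGFR+vIII cells, and that of TNFRSF21 was 731 in TLR2 KO cells and 1980 in EGFR+vIII cells. TNFRSF9 had an implied mean per kilobase of 26.02 in TLR2 KO cells, above TNFRSF10A at 18.2, and of 7.11 in EGFR+vIII cells, below TNFRSF10A at 13.9. The spread over libraries of these levels is not in the deposited values.

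Downstream of the receptors, the adaptor and kinase steps were read from lists of pathway genes. Of 31 genes of the TRAF, ubiquitin and kinase steps, 19 were tested in the authors' deposited table, where 7 were higher and 1 lower (42.1% called, against 25.1% of all tested genes, 12.4% higher and 12.7% lower), with a median log2 fold change of 0.23, against 0.02 over all tested genes. BIRC3, a ubiquitin ligase that binds TRAF2, had the largest rise, with implied means of 288.4 in TLR2 KO and 36.0 normalized reads per library in EGFR+vIII cells (8.01-fold by the authors' deposited table). MAP3K14, the kinase NIK of the non-canonical NF-kB pathway, had implied means of 684.4 in TLR2 KO and 256.8 normalized reads per library in EGFR+vIII cells. The log2 fold change of MAP3K14 was 1.41 (SE 0.13, DESeq2 adjusted p = 1.75e-24) in the authors' deposited table.

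In the authors' deposited table TRAF4 had a log2 fold change of 0.89 (SE 0.14), and TRAF2, the adaptor that TNFRSF1B and TNFRSF9 share, one of 0.69 (SE 0.15). BIRC2, the paralog of BIRC3, was the gene of this pathway list called lower, with a log2 fold change of -0.91 (SE 0.36, DESeq2 adjusted p = 0.0486) in the authors' deposited table. That call was lost at a threshold of 0.01 and with adjustment over every accession with a p-value. Rescaled Wald scores left 3 of the 19 called (BIRC3, MAP3K14 and TRAF4), and a test against a change of 1.5-fold left 2 (BIRC3 and MAP3K14). TRAF1, TRAF3, TRAF5, TRAF6 and the deubiquitinase TNFAIP3 were listed at 0 in the authors' deposited table.

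Of 15 adaptors and genes of the death machinery, 8 were tested and 4 were higher in the authors' deposited table, with 0 lower both by adjusted and by unadjusted p under 0.05; among all tested genes 12.4% were higher and 12.7% lower. The median log2 fold change of the 8 was 0.41. In the authors' deposited table MLKL, the effector of necroptosis, had a log2 fold change of 0.68 (SE 0.19), BAK1, a mitochondrial pore former, of 0.66 (SE 0.22), CFLAR, an inhibitor of caspase-8, of 0.56 (SE 0.17), and FADD, the death domain adaptor, of 0.41 (SE 0.11). The rises thus include both promoters and an inhibitor of cell death. None of these 4 passed when tested against a change of 1.5-fold, nor with Wald scores rescaled to their central spread. Of 29 CFLAR accessions 25 were listed at 0, and its value is that of the leading one. In the authors' deposited table CASP8 had a log2 fold change of 0.41 (SE 0.36) and was not called, and TRADD was listed at 0. The base mean of CASP8 was 5.01, with 4 of 6 accessions at 0, so few reads stand behind its missing call.

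Of 10 genes that shed or process TNF family proteins, 6 were tested in the authors' deposited table, where 2 were higher and 1 lower, against 12.4% higher and 12.7% lower of all tested genes, and the median log2 fold change of the 6 was -0.19. ADAM17, the sheddase of TNF and of TNFRSF1B, had a log2 fold change of 0.28 (SE 0.08, DESeq2 adjusted p = 0.00413) in the authors' deposited table. The ADAM17 inhibitor TIMP3 had implied means of 3745 in TLR2 KO and 408.3 normalized reads per library in EGFR+vIII cells (log2 fold change 3.20 in the authors' deposited table). ADAM17 lost its call with rescaled Wald scores, and of the 3 called genes TIMP3 alone passed against a change of 1.5-fold. RHBDF1, one of the rhomboid-like proteins that escort ADAM17, was lower, with a log2 fold change of -0.89 (SE 0.12, DESeq2 adjusted p = 7.55e-12) in the authors' deposited table.

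Among binding partners outside the superfamily, progranulin (GRN), which has been reported to bind TNFRSF1B, was called lower. GRN had implied means of 3584 in TLR2 KO and 5121 normalized reads per library in EGFR+vIII cells, a log2 fold change of -0.51 (SE 0.08, DESeq2 adjusted p = 1.77e-08) in the authors' deposited table, and did not pass against a change of 1.5-fold. Of 17 genes named for or known as TNF-inducible, 11 were tested in the authors' deposited table, where 5 were higher and 2 lower, against 12.4% higher and 12.7% lower of all tested genes, and the median log2 fold change of the 11 was 0.32. Part of this list was described before from these data. In the authors' deposited table TNFAIP2 had a log2 fold change of 2.40 (SE 0.12) and CXCL8, a neutrophil attractant, of 1.96 (SE 0.19). TNFAIP6, a hyaluronan-binding protein, had -1.70 (SE 0.23) and PTX3, a secreted pentraxin, -0.37 (SE 0.09) on the same deposited log2 scale, and PTX3 and the chemokine CCL2 lost their calls with rescaled Wald scores. Tested against a change of 1.5-fold, 3 of the 11 passed (TNFAIP2, CXCL8 and TNFAIP6).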

How the data were processed

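U87 RNA was sequenced in 3 EGFR+vIII TLR2 KO and 3 EGFR+vIII libraries; groups were taken from the cell type in the labels. The authors used STAR, hg38 and DESeq2, by name only in the submitters' processing notes; their counter, annotation, strandedness and filters are not stated. The authors deposited 1 table of 67933 RefSeq accessions. Per the file headers it holds a base mean, a signal of abundance in normalized reads, and a log2 fold change with its SE. The authors' deposited Wald score is the log2 fold change over its SE. The p-value the authors deposited comes from that score, and its adjusted p-value from a Benjamini-Hochberg adjustment. The largest SE in the deposited table is 0.38 even at few reads, so log2 fold changes appear drawn towards 0 and the changes of thinly read genes are understated. The authors gave an adjusted p for 10303 accessions, with base means of 3.11 or more, and a missing one was kept missing. Depth per library is not stated; the deposited base means sum to 11240272 normalized reads, an average per library.

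Accessions were matched to genes with a RefSeq table of GRCh38.p14, the same build as hg38 (98.8% matched). Each gene stands by its accession with the highest base mean. No test over libraries could be run, so the planned count test was replaced by the authors' adjusted p, read with a threshold of 0.05. Implied group means were computed as 2 times B divided by the sum of 1 and the fold change for EGFR+vIII and the fold change times that for TLR2 KO, from base mean B and log2 fold change L; they have no error of their own. Intervals are 95% normal intervals computed from the deposited SE, and the authors gave none. As that SE stays at or below 0.38 even at few reads, the intervals of thinly read genes are likely too narrow. Transcript lengths came from GENCODE annotation of GRCh38. The genes named are every member with an adjusted p, other members above 0 by base mean, and in each other list at most 4 called genes per direction by size of log2 fold change, besides genes that bind or adjoin a called member. The members and lists were chosen with earlier results of these data known. Some genes of these lists are not reported here. The tests were checked on simulated fold changes with normal noise of the deposited SE, where changes were placed only at base means of at least 100. Such data meet the tests' assumptions by design, so the check does not cover thinly read genes or a wrong SE. Python 3.11.15, pandas 2.3.3, numpy 2.4.6, scipy 1.17.1 and matplotlib 3.10.9 were used.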

Additional observations from a re-analysis of the deposited data

How the results depend on the processing

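Of the 17 tested members, the number called was 6 as deposited and stayed at 6 with a threshold of 0.01 (19.1% of all genes called). Adjustment over every accession with a p-value tested 28 members and also called 6 (14.0% of all genes). Of 17 members, the number called was 4 for a change of more than 1.5-fold (4.27% of all genes called). It was 5 with Wald scores scaled by their central spread (9.39%) and 5 relative to neighbouring genes (25.1%). It was 7 of 17 with the accession of smallest p (25.3% of all genes) and 7 of 28 with the inverse-variance mean over accessions (14.2%). In both, CD70 was called higher (log2 fold change 0.95 and 0.40). With p-values adjusted anew among genes with a base mean of at least 100, 4 of 7 members and 47.7% of all such genes were called. TNFRSF1B, TNFRSF9, TNFRSF21 and TNFRSF10D kept their direction and call in every alternative that tested them. TNFRSF10C lost its call for a change of more than 1.5-fold, with scaled scores (adjusted p = 0.388) and relative to neighbours, and TNFRSF11B for a change of more than 1.5-fold. TNFSF18, not called, changed sign relative to neighbours (-0.026). For a change of more than 1.5-fold the counts were 0 of 8 for adaptors and death machinery, 2 for TRAF, ubiquitin and kinase steps, 1 for shedding, 1 for partners and 3 for TNF-inducible genes. With scaled scores they were 0 for adaptors and death machinery and 3 for TRAF, ubiquitin and kinase steps, and at a base mean of at least 100 the count was 1 for partners; the cause was not tested. All these values come from the authors' deposited table. No paired analysis was possible because the deposited table holds no value per library, and leaving out single libraries was not run for the same reason. Genes with few reads limit what can be told: 11 members had between 0.977 and 9.29 reads' worth over all 6 libraries and no adjusted p.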

Other observations

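The C1q and TNF-related proteins are secreted relatives that share the fold of TNF. The 14 genes whose symbol begins C1QTNF also include antisense and readthrough genes. Of the 14, 4 were tested by the authors' DESeq2 run, and 0 were called by adjusted p, against 25.1% of all tested genes. With so few genes tested, a count of 0 says little. None of the 4 had an unadjusted p under 0.05 in the authors' deposited table. In the authors' deposited table C1QTNF1 had a log2 fold change of 0.44 (SE 0.35), C1QTNF2 of -0.09 (SE 0.36), C1QTNF3 of -0.26 (SE 0.37) and C1QTNF12 of -0.13 (SE 0.33). Their base means of 3.78 to 5.92 lie close to the lowest with an adjusted p (3.11), and few reads stand behind these estimates.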
